A study of Mus musculus with 2 samples.

Results

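The genes described here are 49 that copy DNA or supply its building blocks: the subunits of the origin recognition complex, the licensing factors, the replicative helicase and its activators, the 3 replicative polymerases, the sliding clamp and its loader, the single-strand binding protein RPA, the enzymes that finish Okazaki fragments, and 5 enzymes of deoxynucleotide supply. They were listed by symbol for their known roles, with no threshold on their values, though earlier results of these data were known, and all 49 were found among the 43346 genes of the tables. RNA was measured by total RNA sequencing in whole liver of B6NCrl mouse embryos at embryonic day 15.5, in a single group of 2 libraries that the labels call biological replicates. Replicate 1 was a pool of 78 embryos and replicate 2 a pool of 62, both sexes mixed, and 10 ng of RNA longer than 200 nt, with spike-in RNAs added, went into each library. There was no treated, mutant or control group, so values are compared between genes and between the 2 pools.

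Before a cell divides, the origin recognition complex (ORC) marks start sites on DNA, and Cdc6 and Cdt1 help it to load the MCM2-7 ring, an inactive helicase. In S phase the ring is switched on by Cdc45 and the GINS complex, polymerase alpha-primase lays primers, and polymerases epsilon and delta extend them on the leading and lagging strands, held to DNA by the clamp PCNA. The fetal liver is the main blood-forming organ at this stage, and its erythroid precursors divide rapidly, while hepatocyte precursors divide too. Many genes of this machinery are known targets of the E2F transcription factors.

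The libraries held 34039441 and 44200863 expected counts without spike-ins, of which the 49 genes took 233559 and 320196. Levels are in TPM (transcript abundance corrected for transcript length and library total, spike-ins left out), so genes can be compared within a library, and an SD is over the 2 libraries (n = 2). Checked against its markers, the tissue held RNA of both main cell classes: all 8 hepatocyte and all 8 erythroid markers were above 10 TPM in each library, with hepatocyte markers from Hnf4a at 17.6 and 15.7 TPM to Trf at 15233 and 10337 TPM, and Alas2 led the erythroid markers at 1454 and 1294 TPM. In a whole tissue, fewer cells of a type and less RNA per cell cannot be told apart.

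Nearly the whole machinery was expressed. Of the 49 genes, 48 stood at 10 TPM or more in each of the 2 libraries, against 14.3% of all genes and 27.8% of protein-coding genes, and 12 stood at 100 TPM or more, against 4.34% of protein-coding genes. The exception was Gins3, a GINS subunit, at 6.97 TPM in replicate 1 and 7.07 TPM in replicate 2. Together the 49 genes held 0.378% and 0.392% of all TPM in replicates 1 and 2, or 0.610% and 0.642% once the 4 adult globin genes were left out of the total. Their median level was 56.7 and 54.9 TPM, against 19.1 and 18.5 TPM over the 8781 genes at 5 TPM or more in either library. Rrm2 was the highest at 423 ± 15.8 TPM and ranked 210th of all genes, followed by Pcna at 242 ± 16.5 TPM and Mcm6 at 196 ± 0.665 TPM (SD, n = 2). In the order of levels, 26 of the 48 neighbouring pairs had overlapping values in the 2 libraries, so single steps of that order are often within the spread. The steps from Rrm2 to Pcna and from Pcna to Mcm6 did not overlap. The authors' SD of the assigned count, which measures uncertainty within their estimate, was at most 0.641% of the count for any of the 49. It cannot show reads that were left out or assigned to the wrong gene.

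**Figure D1:**
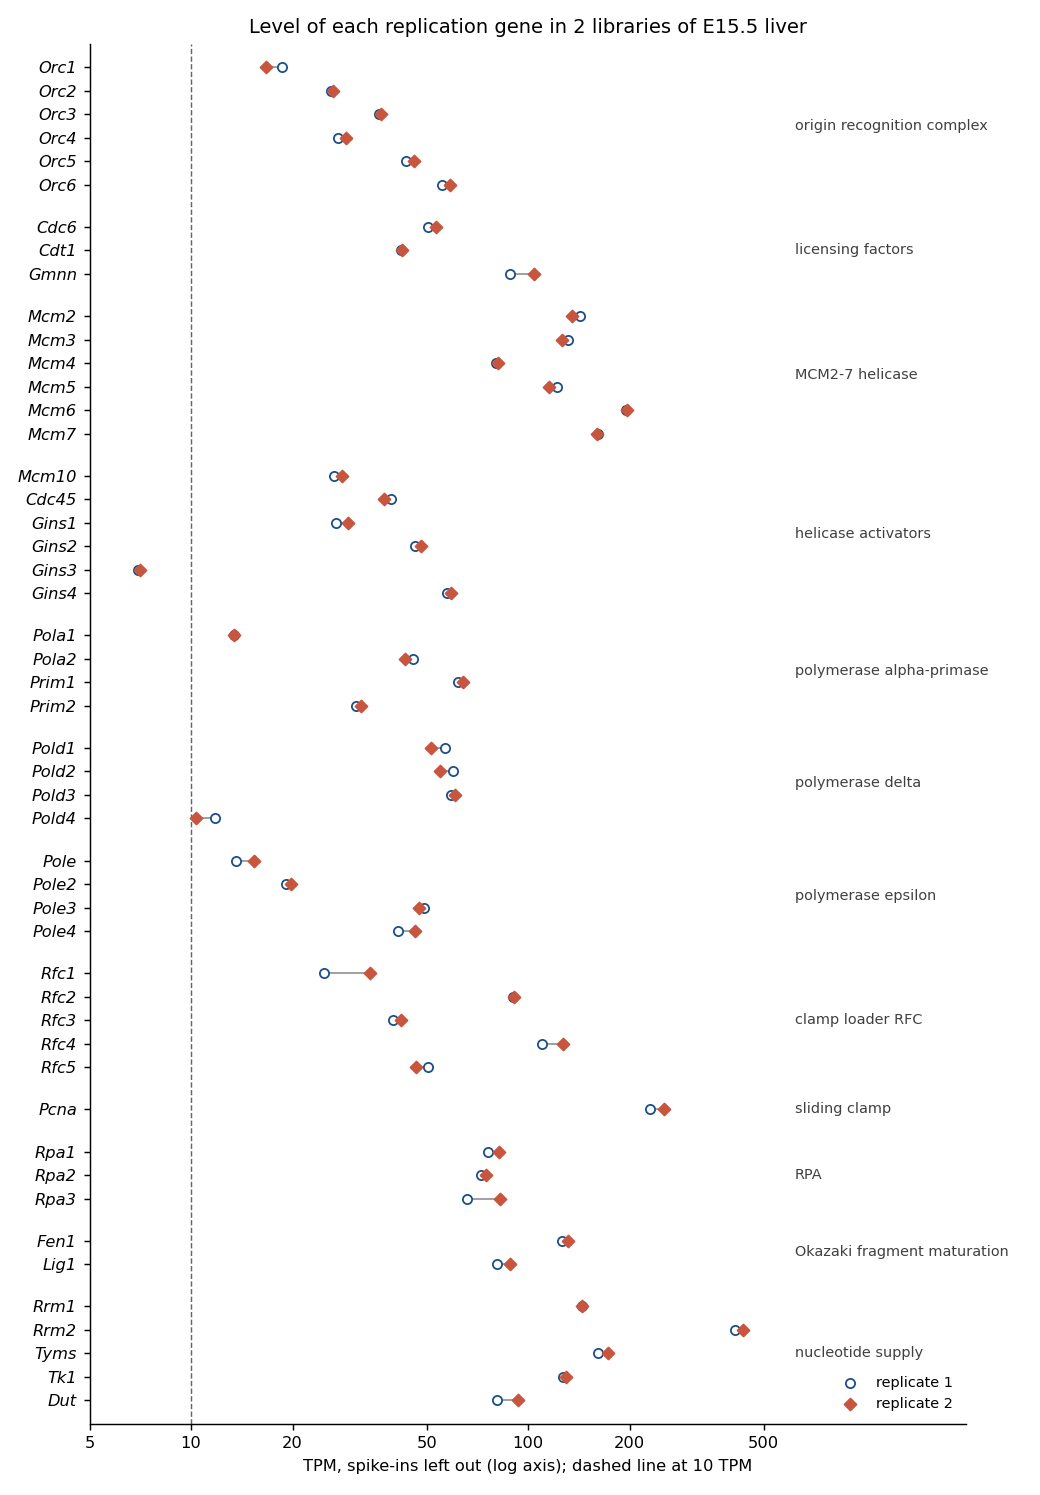
TPM of each of the 49 genes (log axis) in replicate 1 (open circles) and replicate 2 (filled diamonds), grouped by complex, with a dashed line at 10 TPM. The MCM2-7 subunits, Pcna and the nucleotide enzymes lie to the right, Gins3 alone lies left of the line, and Rfc1 shows the widest gap between the libraries.

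The promoters of these genes held the core E2F site more often than promoters at large. The words searched were TTTCCCGC, TTTCGCGC, TTTGCCGC and TTTGGCGC on both strands, overlaps counted, in RefSeq windows (GRCm38.p6) of 300 bases, from 250 before the transcription start to 50 after it. Windows were listed for 41 of the 49 genes, 50 windows in all, and not for Gmnn, Mcm4, Gins1, Gins2, Gins4, Prim2, Pole and Rfc2. A word was present in 17 of these 50 windows (34%), against 2.26% of all 32851 windows and 4.58% of the 6132 windows whose genes reached 10 TPM in each library. The 16 genes with a word included Mcm3, Mcm5, Mcm6 and Mcm7 of the helicase, Cdc6 and Cdt1 of licensing, Orc1 and Orc3, and at least 1 subunit of each polymerase. Of the 5 nucleotide enzymes, of RPA and of Pcna, none held a word in the window, which says only that these letters are not there. The CCAAT box, searched on both strands, was in 52% of the 50 windows, against 37.4% of all windows and 39.1% of those of genes at that level. TTTGAA, part of the element of late cell cycle genes, was in 10%, against 17.9% and 12.6%. Genes with an E2F word had a median level of 47.7 TPM and those with a window and no word 63.1 TPM, so within the set the median was not higher with the word.

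The 5 sites upstream of a RefSeq start and clear of annotated exons are shown to let the shared core be seen in its surroundings, 5′ to 3′ along the gene, with the E2F word or overlapping words in capitals. Where the capitals begin with GCG, the word is read on the other strand. Mcm5 and Mcm6 each carried a block of 12 bases in which a word on 1 strand overlaps a word on the other. The annotations differ for Cdc6: GENCODE M21 also starts the gene at 98907801, so the site shown lies before the RefSeq start used here and within an intron of the longer forms.
Mcm6, chr1:128359784-128359835, minus strand, first capital 110 bases before the start: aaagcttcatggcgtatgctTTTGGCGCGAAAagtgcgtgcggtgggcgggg
Mcm6, chr1:128359725-128359772, minus strand, 47 bases before the start: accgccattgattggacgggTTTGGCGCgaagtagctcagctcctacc
Mcm5, chr8:75109336-75109387, plus strand, 153 bases before the start: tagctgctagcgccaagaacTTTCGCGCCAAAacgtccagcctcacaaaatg
Cdc6, chr11:98907993-98908040, plus strand, 138 bases before the start: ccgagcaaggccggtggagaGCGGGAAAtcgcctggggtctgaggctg
Pola1, chrX:93632266-93632313, minus strand, 138 bases before the start: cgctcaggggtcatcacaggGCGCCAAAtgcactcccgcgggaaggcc

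**Figure D2:**
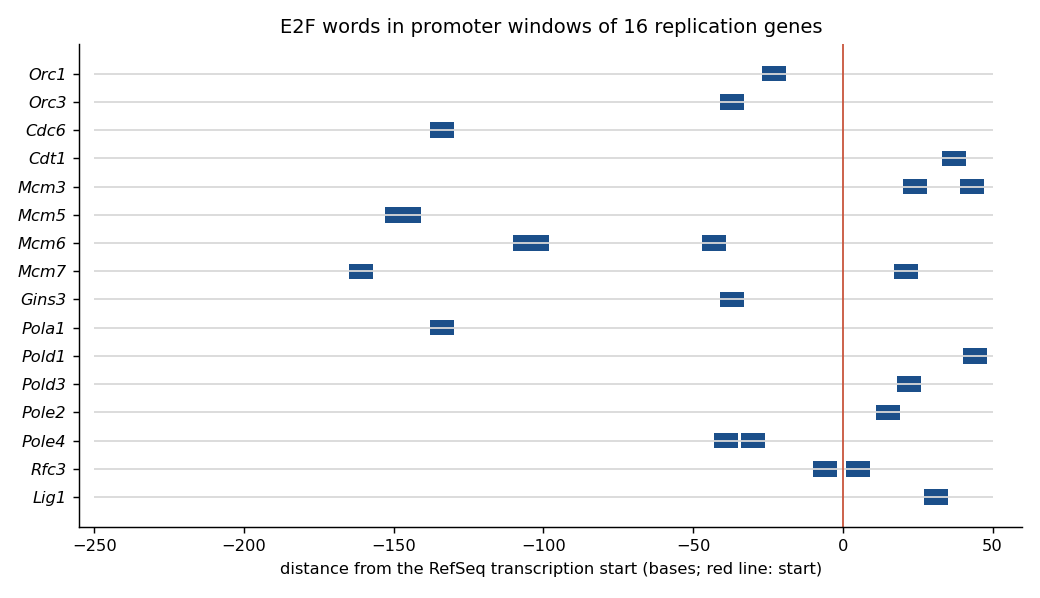
Position of each E2F word (bars of 8 bases) in the promoter windows of the 16 genes that hold one, as distance from the RefSeq transcription start (red line). Of 23 words, 16 lie within 50 bases of the start, and the pair in Pole4 is a single site seen from 2 listed starts.

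The origin recognition complex was expressed at a modest and uneven level. Its 6 genes summed to 210 ± 4.52 TPM (SD, n = 2), and their order was the same in both libraries. Orc1, the subunit whose protein is known to vary through the cell cycle (chromosome 4, 108579423 to 108614833, GRCm38), had the smallest level over all transcripts, 18.6 TPM in replicate 1 and 16.7 TPM in replicate 2. Orc6, the smallest subunit (chromosome 8, 85299632 to 85308278), was the highest at 55.5 and 58.6 TPM. The subunits Orc2, Orc3, Orc4 and Orc5 lay between them, at 26.2, 36.4, 28.1 and 44.6 TPM (means). The highest exceeded the lowest 2.98-fold in replicate 1 and 3.51-fold in replicate 2.

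Among the licensing factors, Gmnn, which encodes geminin, the protein that binds Cdt1 and blocks relicensing, was above its target. Gmnn stood at 88.3 and 104 TPM in replicates 1 and 2, and Cdt1 (chromosome 8, 122568015 to 122573554) at 41.9 and 42.3 TPM. The libraries did not overlap between the 2 genes. The log2 ratio of Cdt1 to Gmnn was -1.19 ± 0.16 (SD, n = 2), with the same sign in both libraries. By expected counts, which are not corrected for length, it was 0.087, because Cdt1 RNA is longer (2189 nt against a mean of 961 nt). Cdc6, the ATPase that completes the loader, stood between them at 50.3 and 53.4 TPM.

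The 6 helicase genes stood far above the complex that loads them. Over all transcripts MCM2-7 summed to 823 ± 13.6 TPM, and all but Mcm4 exceeded 100 TPM in both libraries. Mcm6 (chromosome 1, 128331590 to 128359664) was the highest at 195 and 196 TPM, and Mcm7, whose annotated exons overlap Mir25 and Mir93 (chromosome 5, 138164583 to 138172422), followed at 162 and 159.8 TPM. Mcm2 stood at 142 and 135 TPM, Mcm3 at 131 and 126 TPM and Mcm5 at 122 and 115 TPM, while Mcm4 stood lowest at 80.1 and 81.2 TPM. The order of the 6 was the same in both libraries. The mean MCM2-7 subunit exceeded the mean ORC subunit by a log2 difference of 1.97 ± 0.055 (SD, n = 2), which is 4.03-fold in replicate 1 and 3.81-fold in replicate 2. Over 2 libraries an exact two-sided sign-flip permutation test cannot go below p = 0.5, for this and every other ratio given, so each rests on its size beside the spread. Although the 6 proteins form a ring in equal numbers, their RNAs spanned 2.43 ± 0.015-fold (SD, n = 2) from lowest to highest.

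The helicase activators were lower and, over all transcripts, spanned the widest range of any group. Cdc45, which joins the ring at firing, stood at 39.1 and 37.3 TPM and Mcm10, which helps to open the ring, at 26.5 and 28.1 TPM. The 4 GINS subunits, which also form a complex in equal numbers, ranged from Gins3 at 6.97 and 7.07 TPM (chromosome 8, 95633453 to 95645060) through Gins1 at 27.0 and 29.3 TPM and Gins2 at 46.1 and 48.1 TPM to Gins4 at 57.5 and 59.0 TPM. Gins4 exceeded Gins3 8.25-fold in replicate 1 and 8.34-fold in replicate 2. The low value of Gins3 rested on 502 and 687 expected counts and on a single listed transcript of 2412 nt.

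In polymerase alpha-primase and polymerase epsilon the DNA polymerase subunit was the lowest of its complex, and in polymerase delta it was not. Pola1, which elongates the primer (chromosome X, 93304767 to 93632155), stood at 13.4 TPM in both libraries, below its partner Pola2 at 45.5 and 43.0 TPM and the primase subunits Prim1 at 62.0 and 64.2 TPM and Prim2 at 30.9 and 31.8 TPM. Pole, the leading strand polymerase (chromosome 5, 110286306 to 110337474), stood at 13.6 and 15.4 TPM. Its partners were higher: Pole2 reached 19.1 and 19.8 TPM, and the histone-fold subunits Pole3 and Pole4 reached 49.1 and 47.5 TPM and 41.0 and 46.1 TPM. Pold1, the lagging strand polymerase (chromosome 7, 44532746 to 44548849), stood at 56.7 and 51.5 TPM over all transcripts. That was close to Pold2 at 59.7 and 54.9 TPM and Pold3 at 59.1 and 60.7 TPM. From protein-coding transcripts alone Pold1 stood at 27.2 and 27.9 TPM, Pold2 at 41.7 and 40.1 TPM and Pold3 at 30.1 and 31.1 TPM. Coding Pold1 was thus below coding Pold2 in both libraries. The small accessory subunit Pold4 was the lowest of polymerase delta at 11.8 and 10.3 TPM, from 297 and 351 expected counts. Across the 49 genes the level showed little relation to the mean length of a gene's transcripts. Pearson r was -0.084 and Spearman rho -0.073 between log2 mean TPM and log2 mean length. The genes share the same 2 libraries and are not independent replicates. This mean length depends on the mix of forms in each library, and for Pole it was 3245 and 2673 nt, beside 7163 nt for Pole-201. A relation to the length of the main form was not tested.

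The sliding clamp gene exceeded each of the 5 genes of its loader, whose sum of 315 and 340.4 TPM was higher. Pcna, the ring that holds polymerases on DNA (chromosome 2, 132249162 to 132253314), stood at 230.2 and 254 TPM. Of the RFC genes, Rfc4 at 110.2 and 127 TPM and Rfc2 at 90.2 and 91.1 TPM were the highest, Rfc5 stood at 50.5 and 46.5 TPM and Rfc3 at 39.6 and 41.9 TPM, and the large subunit Rfc1 was the lowest at 24.7 and 33.9 TPM. The 3 RPA genes, which coat single-stranded DNA, were the most even complex. Rpa1 stood at 76.0 and 81.9 TPM, Rpa2 at 72.6 and 75.2 TPM and Rpa3 at 66.0 and 82.5 TPM, a span of 1.15-fold in replicate 1 and 1.097-fold in replicate 2 in which the order changed between the libraries. Fen1, the flap nuclease that trims Okazaki fragments, reached 126 and 131 TPM, and Lig1, the ligase that seals them, reached 81.0 and 88.6 TPM.

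Over all transcripts nucleotide supply had the highest sum of any group, at 949 ± 33.7 TPM for 5 genes (SD, n = 2). From protein-coding transcripts alone MCM2-7 was higher in both libraries, at 775 and 759 TPM against 703 and 749 TPM. MCM2-7 was also higher by expected counts, which are not corrected for length, at 74139 and 97413 against 55610 and 77803. Rrm2, the small subunit of ribonucleotide reductase (chromosome 12, 24708241 to 24714146), stood at 411 and 434 TPM, and Rrm1, the large subunit (chromosome 7, 102441695 to 102469771), at 145 and 144 TPM. The log2 ratio of Rrm2 to Rrm1 was 1.55 ± 0.061 (SD, n = 2), or 2.84-fold and 3.01-fold in replicates 1 and 2. By expected counts it was 0.60, since Rrm1 RNA is longer. Tyms, which makes thymidylate, stood at 161 and 172 TPM, Tk1, the cytosolic thymidine kinase, at 127 and 129.7 TPM, and Dut, which removes dUTP, at 80.6 and 93.3 TPM. The forms of these enzymes used outside S phase or in mitochondria were low. Rrm2b, the small subunit used in resting and damaged cells, stood at 1.74 and 1.70 TPM, and the log2 ratio of Rrm2 to Rrm2b was 7.94 ± 0.076 (SD, n = 2), or 7.28 with 1 TPM added to each. Tk2, the mitochondrial thymidine kinase, stood at 5.75 and 5.01 TPM, and the log2 ratio of Tk1 to Tk2 was 4.58 ± 0.16 (SD, n = 2). It was 3.77 from protein-coding transcripts alone and 3.45 by expected counts.

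A gene's TPM sums all its listed transcripts, and for some of the 49 most of it came from short forms that are not annotated as coding. The median share of protein-coding transcripts in a gene's TPM was 93.3% over the 49, against 97.8% over the 5967 protein-coding genes that reached 10 TPM in each library. It was below 50% in 4 of the 49, Tyms, Rfc1, Gins2 and Orc4, against 7.36% of those 5967 genes. A count of 4 among 49 is near that share. It was 90% or more in 29 of the 49, a share that was not computed for the 5967 genes. For Tyms the coding form, Tyms-201 (3163 nt), held 7.04% and 7.02% of the gene's TPM in replicates 1 and 2, or 11.4 and 12.1 TPM. Tyms-205, a form marked for nonsense-mediated decay (797 nt), held 47.2% and 45.5%, and the retained-intron form Tyms-202 (816 nt) held 32.4% and 35.6%. By expected counts Tyms-201 held 20.3% and 20.8%. By these assigned values, the high rank of Tyms in the set came from all its transcripts together and not from Tyms-201. The split among forms is an estimate. The SD of the assigned count was taken for genes only, so the uncertainty of this and the other splits is not given.

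Gins2 was split as well, though by counts most of its reads lay in the coding form. Its coding form Gins2-201 (3900 nt) held 21.4% and 21.5% of TPM but 66.4% and 70.7% of counts, while the retained-intron form Gins2-204 (511 nt) held 74.0% and 71.9% of TPM. Gins2 also shares 2758 of its 4097 exon bases with Gse1 on the opposite strand, which stood at a mean of 5.16 TPM. Whether counting used strand is not given in the sources used here, so reads of such pairs cannot be told apart. Exons of 18 of the 49 genes overlap those of another gene, with the largest share of exon bases in Fen1, where the antisense gene Gm10143 (6.19 TPM) covers 1909 of 2422 bases. Orc4 was divided among many forms, and the coding ones held 41.3% and 38.0% of TPM. For Rfc1, 84.3% and 91.7% of TPM lay in transcripts that have no entry in the later annotation used for names, so their class is unknown. For Tk1 the coding form Tk1-201 held 52.9% and 61.1% of TPM and the retained-intron form Tk1-203 (724 nt) 39.0% and 32.8%. Among the genes listed with protein-coding transcripts alone were Mcm2, Mcm4, Mcm5, Cdt1, Cdc45, Gins3, Gins4, Fen1, Rfc2 and Rrm1.

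**Figure D3:**
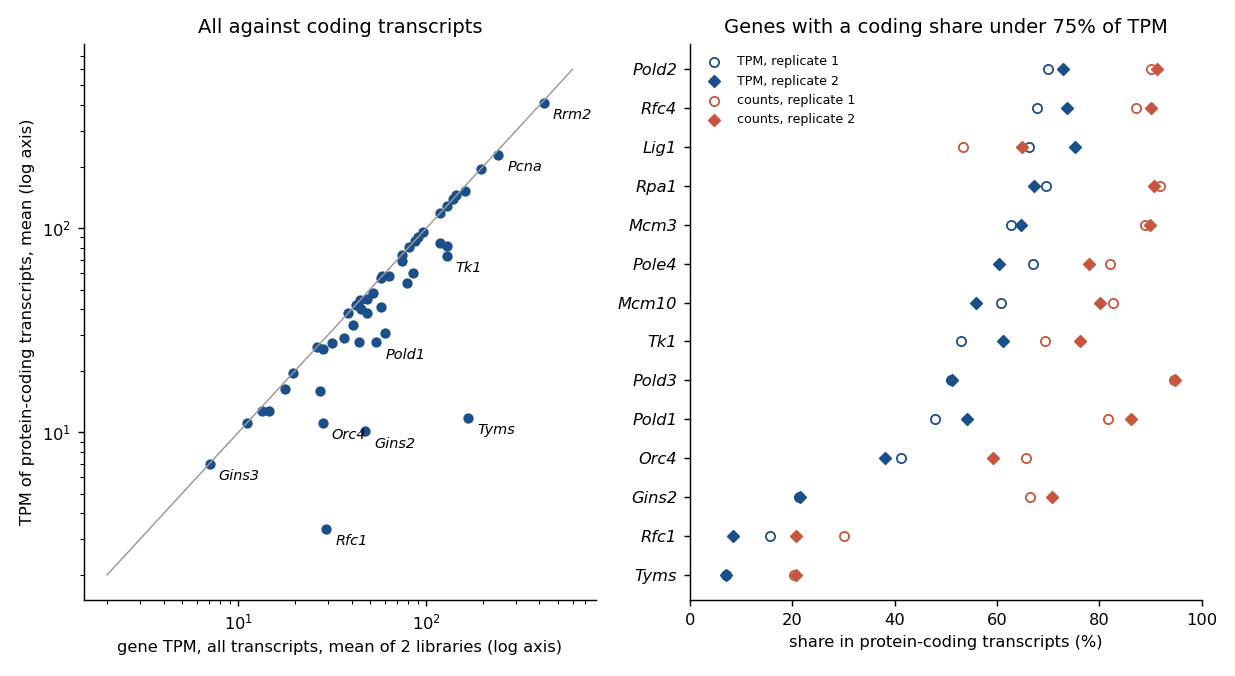
Left, TPM of protein-coding transcripts against TPM of all transcripts for the 49 genes (means of 2 libraries, both axes log, grey line of equality). Right, the share of TPM (blue) and of expected counts (red) in protein-coding transcripts for the 14 genes below 75% of TPM, with open circles for replicate 1 and diamonds for replicate 2. Tyms and Rfc1 lie lowest by both measures, and Pold3 is far lower by TPM than by counts.

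Pole was split among coding forms. Pole-201, of 7163 nt, held 70.5% and 65.2% of the gene's expected counts but 31.4% and 23.8% of its TPM, or 4.26 and 3.65 TPM. The short coding fragment Pole-203, of 747 nt, held 32.6% and 43.3% of TPM. Pold3 behaved likewise: a listed form of 186 nt with no later entry held 39.0% and 38.8% of TPM from 62.5 and 86.0 expected counts. Effective lengths in the tables are mostly 99 nt below the lengths, which raises the TPM of such short forms. Other genes were shared between full-sized coding forms. Fen1 was divided among Fen1-201, at 39.5% and 39.0%, Fen1-202, at 37.6% and 40.5%, and Fen1-203, at 22.9% and 19.7%. Cdc45-201 held 56.2% and 58.1% and Cdc45-202 43.6% and 41.9%. Orc3-201 held 39.9% and 39.6% and Orc3-202 35.0% and 44.1%. Dut-202 (1020 nt) held 84.6% and 88.9% of Dut, and Dut-201 (1950 nt) 14.3% and 10.5%. The leading form was the same in both libraries in 36 of the 39 genes that have 2 or more transcripts, against 93.2% of 6121 such genes. It differed in Fen1, Orc3 and Orc4.

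With coding transcripts alone, 46 of the 49 genes reached 10 TPM in each library, and the log2 ratio of the mean MCM2-7 subunit to the mean ORC subunit was 2.09. Orc4 became the lowest ORC subunit at 11.3 and 11.0 TPM, and the ORC span rose to 5.13-fold from 3.25-fold. The span of RFC rose to 28.2-fold and that of the nucleotide enzymes to 35.0-fold. Coding Rfc1 stood at 3.87 and 2.83 TPM and coding Tyms at 11.4 and 12.1 TPM. The RFC span depends on how the unmatched Rfc1 forms are classed, since none was counted as coding. An unmatched form of 4751 nt, beside 4694 nt for Rfc1-201, stood at 6.52 and 6.35 TPM. It held 51.2% and 47.4% of the expected counts of Rfc1 in replicates 1 and 2. The spans of MCM2-7 at 2.42-fold and of the activators at 8.30-fold were close to those of all transcripts. Within MCM2-7, however, coding Mcm3 stood at 82.4 and 81.5 TPM. That was near Mcm4 at 80.1 and 81.2 TPM and below Mcm5 at 122 and 115 TPM, so the order changed.

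Differences between the 2 pools in these genes were small. None of the 49 differed by more than 2-fold in TPM + 1, against 0.672% of the 8781 genes at 5 TPM or more in either library, and none by more than 1.5-fold, against 1.83%. At these shares a count of 0 among 49 genes is near the background. With 1 library on each side there is no p-value. In TPM, 47 of the 49 lay within 1.25-fold, against 88.9% of the 8781 genes. The exceptions were Rpa3, at 66.0 and 82.5 TPM, and Rfc1, at 24.7 and 33.9 TPM. For Rfc1 the TPM ratio of 1.37 stood beside a ratio of expected counts, scaled by library totals, of 1.095 (exact Clopper-Pearson 95% interval 1.03 to 1.16), and the mean length of its transcripts fell from 2489 to 1939 nt between the estimates. For Rpa3 the count ratio of 1.299 (1.208 to 1.398) lay near the TPM ratio of 1.251.

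Small as they were, the differences leaned to replicate 2. In TPM 35 of 49 genes were higher in replicate 2, against 39.2% of the 8781 genes. The count was 41 with TMM scaling of expected counts (54.7% of all genes), 43 with DESeq2 size factors (55.4%) and 49 with spike-in scaling (82.3%). The median log2 ratio of the 49 was 0.042, against -0.044 over all. The 95% counting interval of the count ratio lay above 1 in 30 of the 49 and below 1 in 0, against 25.2% and 24.4% of all genes. Genes with more counts have narrower intervals, and the median level of the 49 was above that of the 8781 genes. The shares were therefore not compared at equal depth. These intervals cover counting error only, since PCR copies are not independent molecules, and not the spread between pools. Gmnn (1.23), Rfc4 (1.26), Dut (1.16), Gins1 (1.15) and Pcna (1.14) had the highest count ratios after Rpa3, and Pold4 (0.910) the lowest. Of the 6 MCM2-7 genes 4 were lower in replicate 2 by TPM, but 4 were higher with TMM, 5 with DESeq2 size factors and 6 with spike-in scaling, so they have no direction that holds under each scaling.

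Markers of the main cell types moved as well. All 8 hepatocyte markers were lower in replicate 2, with a median log2 ratio of -0.31 and summed levels of 39533 and 30355 TPM, from Hnf4a at -0.15 to Ahsg at -0.63. Of the 8 erythroid markers 6 were lower, with a median of -0.14 and sums of 4211 and 3910 TPM. Of the 6 macrophage markers 5 were lower, with a median of -0.25. Over all 8781 genes at 5 TPM or more in either library 5338 were lower, with a median of -0.044. The count of erythroid markers is near that share. The 6 granulocyte and monocyte markers had a median of 0.053, with 4 higher and sums of 5525 and 5944 TPM. In the other lists all 5 endothelial, 5 of 6 stem and progenitor, 4 of 5 stellate and mesenchymal and 3 of 5 megakaryocyte markers were lower. These directions are in TPM and were not computed with the other scalings. No marker was at 0 in both libraries. The part of cell makeup in the lean of the replication genes was not tested.

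**Figure D4:**
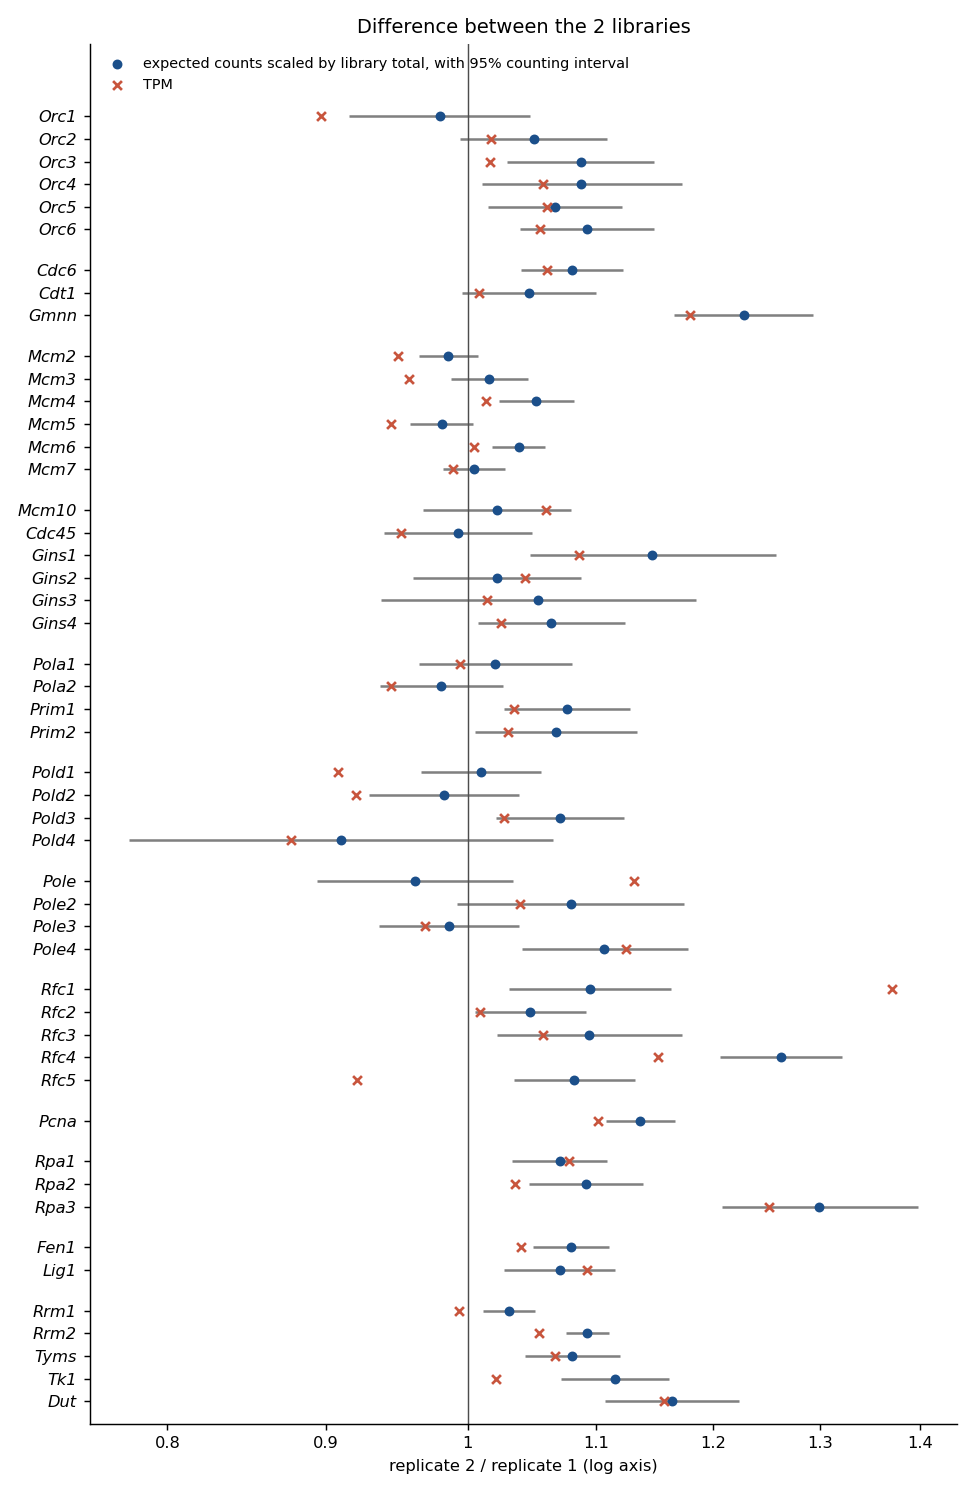
Replicate 2 over replicate 1 for each of the 49 genes (log axis), from counts scaled by library total with exact 95% counting intervals (blue points, grey bars) and from TPM (red crosses). Rpa3 and Rfc4 have the highest count ratios and Pold4 the lowest, and for Rfc1 the TPM ratio lies far above the counting interval.

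Other genes of replication were measured beside the set. Of the 116 genes of 11 further lists, 81 reached 10 TPM in each library, and their median was 21.7 and 19.8 TPM. None of the 103 at 5 TPM or more in either library differed by more than 2-fold, against 0.672% of all such genes. That count is near the background. Of the 11 genes of origin firing 9 reached 10 TPM, led by the S phase cyclin gene Ccna2 at 232 and 233 TPM, then Ccne1 at 72.0 and 73.9 TPM and Ccne2 at 55.2 and 60.6 TPM. The kinase Cdc7, which triggers the loaded helicase, stood at 16.7 and 15.1 TPM and its activator Dbf4 at 21.9 and 24.9 TPM, while Ticrr was the lowest at 4.05 and 3.66 TPM. Of 16 fork genes 14 reached 10 TPM, with Top2a at 170 and 173 TPM, Tipin at 132 and 143 TPM and Rnaseh2a at 92.3 and 93.2 TPM, down to Atad5, a clamp unloader, at 8.70 and 8.41 TPM. All 9 genes of chromatin assembly did so, led by Rbbp4 at 205 and 240.4 TPM, Ssrp1 at 134 and 137 TPM and Asf1b at 108 and 109 TPM, with Chaf1a lowest at 25.4 and 23.1 TPM.

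Relatives of the set that work in repair, meiosis or mitochondria were lower. Of 16 other MCM and polymerase genes 4 reached 10 TPM, and their median was 4.74 and 4.48 TPM. Polb, the base excision repair polymerase, stood at 17.2 and 19.4 TPM and Dntt, the lowest, at 0.052 and 0 TPM. Lig3, the ligase of mitochondria and repair, stood at 5.997 and 7.75 TPM and Lig4 at 0.787 and 0.661 TPM, below Lig1 in both libraries. The mitochondrial DNA polymerase Polg stood at 15.5 and 13.3 TPM, near the levels of Pola1 and Pole, and Ssbp1 led the 8 genes of its list at 40.3 and 47.1 TPM. Among salvage and breakdown genes, the nucleoside carrier gene Slc29a1 reached 169 and 162 TPM, Dtymk, the thymidylate kinase next to Tyms and Tk1 in the pathway, 102 and 105 TPM and Dck, the deoxycytidine kinase, 83.0 and 88.3 TPM. Samhd1, which breaks down deoxynucleotides, stood at 14.0 and 16.7 TPM.

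**Figure D5:**
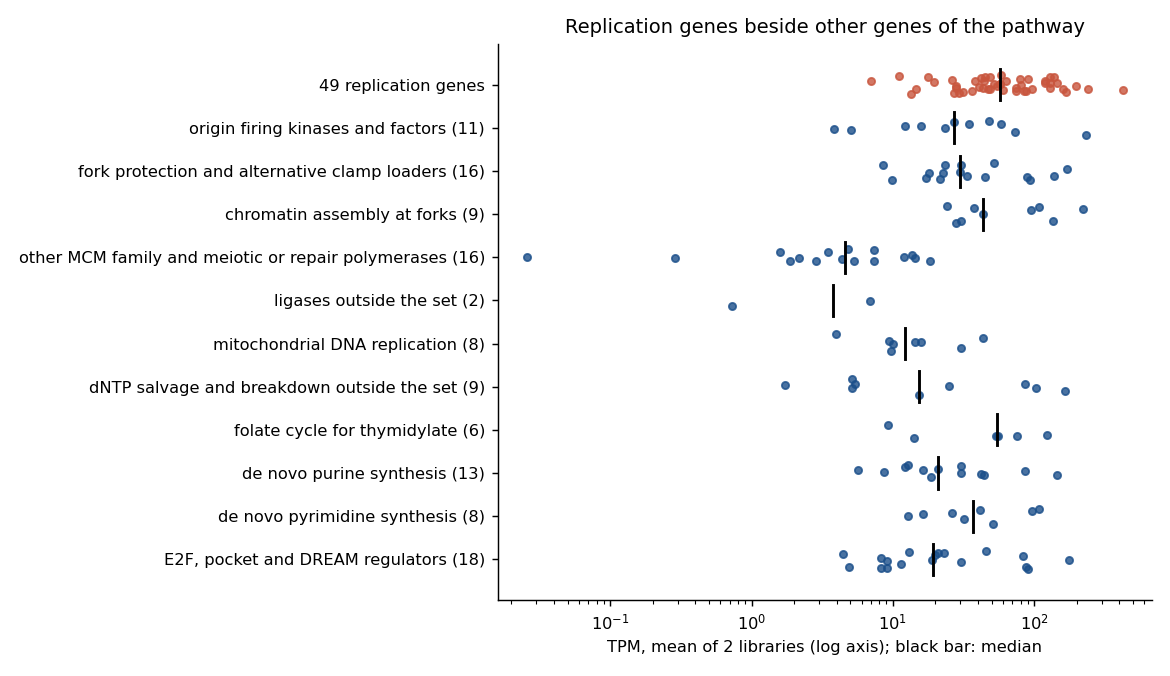
Mean TPM over the 2 libraries (log axis) of the 49 replication genes (red) and of each further list (blue, number of genes in brackets), with black bars at the medians. Repair polymerases and the other ligases lie lowest, and the ranges of most other lists overlap that of the 49 genes.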

How the data were processed

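Total RNA sequencing of E15.5 mouse liver was analysed in 2 libraries of 1 group. Expected counts, as deposited, are unscaled estimates by the authors of reads for each gene and transcript. TPM and posterior mean TPM, as deposited, are the authors' length-normalised abundances with spike-ins in the total. All were made on mm10 with annotation M4, per the companion descriptions. The name of the aligner or quantifier is not given in the sources used here. TPM was rescaled after 97 spike-in entries were left out, and 26248 entries with a numeric identifier were left out of comparisons. Symbols, transcript classes and coordinates came from GENCODE M21 (GRCm38), which named 42462 of 43346 genes. Nothing in the labels says that the pools shared or did not share litters.

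All 49 genes were described. In the further lists the 3 highest and the lowest genes and 12 genes chosen by name could be named, and not every one is reported here. The genes were listed by role with no threshold on their values, but the genes, lists and tests were all chosen with earlier results of these data known. Calls used 10 TPM in both libraries for levels, and 2-fold in TPM + 1 at 5 TPM or more in either library between pools. Values are mean ± SD (n = 2). Expected counts were rounded for TMM (edgeR 4.0.16) and size factors (DESeq2 1.42.0), used for scaling alone. The fold rule and the intervals were tested on simulated data. Other software was R 4.3.3, matplotlib 3.10.9, Python 3.11.15 with SciPy 1.17.1, pandas 2.3.3 and NumPy 2.4.6. Alternatives were other limits, pseudocounts, scalings, posterior means, single libraries, counts in place of TPM and coding transcripts alone.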

Additional observations from a re-analysis of the deposited data

How the results depend on the processing

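Of 72 alternatives over 12 results, 50 left the value within the spread between libraries (for counts and for the median ratio between pools, which has no such spread, within 1.5 times), 21 moved it further and 1 reversed it. The share of TPM held by the set (0.385%) was 0.705% of expected counts, 0.626% without adult globins in the total, 0.323% from coding transcripts and 0.329% from coding and unmatched ones. The last setting, coding transcripts between the pools and E2F words by gene were chosen after seeing the data. Without length correction, the log2 ratios were 2.52 for MCM2-7 to ORC, 0.60 for Rrm2 to Rrm1, 7.57 for Rrm2 to Rrm2b and 3.45 for Tk1 to Tk2, that of Cdt1 to Gmnn reversed to 0.087, and the MCM2-7 span was 2.06-fold. From coding transcripts they were 2.09 for MCM2-7 to ORC (2.09 with unmatched ones), 8.08 for Rrm2 to Rrm2b and 3.77 for Tk1 to Tk2. With a pseudocount of 1 the MCM2-7 span was 2.41-fold and the ratios to Rrm2b and Tk2 were 7.28 and 4.34. Rrm2 to Rrm2b was 7.43 by posterior mean TPM. The median log2 ratio between pools (0.042) was 0.113 with TMM and 0.115 with DESeq2 size factors. Spike-in scaling raised the median of all genes by 0.18 and that of the set to 0.24, still 0.098 above all genes. With 7-letter E2F cores 29 windows held a word, against 9.57% of all windows. With either library alone 48 genes stood at 10 TPM or more. For values and ratios the single-library settings could not move the result. With n = 2 each library always lies less than 1 SD from the mean. These settings are among the 50 and are no sign of stability. No paired analysis was possible because the design holds 1 group. Counting error is widest for Pold4, at 297 expected counts in replicate 1, and 2 libraries limit every SD.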

Other observations

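Most genes that make nucleotides from simple precursors were expressed. Of 13 genes of purine synthesis 11 stood at 10 TPM or more in both libraries, led by Paics at 145 and 146 TPM, Impdh2 at 84.6 and 86.9 TPM and Adsl at 42.0 and 45.8 TPM, with Prps2 lowest at 5.16 and 6.23 TPM. All 8 pyrimidine genes did so, with Nme2 at 96.4 and 119.6 TPM and Nme1 at 95.2 and 98.2 TPM, while Cad, the enzyme that starts the pathway, was lowest at 13.1 and 12.4 TPM. Of the folate genes that serve Tyms, Shmt2 led at 133 and 114 TPM and Mthfd1 stood at 79.0 and 73.3 TPM.

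Among 18 E2F, pocket and partner genes, E2f4 was the highest at 181 and 171 TPM, with the partners Tfdp2 at 86.9 and 92.8 TPM and Tfdp1 at 85.4 and 88.7 TPM. E2f2 at 88.3 and 78.8 TPM exceeded E2f1 at 22.2 and 17.8 TPM in both libraries, and E2f8 stood at 30.1 and 31.0 TPM. E2f3 was the lowest at 4.51 and 4.39 TPM.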
